A study of Mus musculus with 23 samples.

Results

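The cytosolic ribosome of a mammalian cell is built from a small and a large subunit, and each ribosomal protein is needed in about the same number as the others. Their mRNAs are abundant, short and mostly begin with a run of pyrimidines, the 5′ terminal oligopyrimidine (TOP) motif, through which mTOR signaling and the RNA-binding protein Larp1 set their translation. In T-cell leukemia the genes have a history of their own: RPL22, RPL5 and RPL10 are recurrently deleted or mutated in human T-ALL, and free Rpl5 and Rpl11 bind Mdm2 and so relay faulty ribosome assembly to p53.

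The ribosomal protein genes were taken by symbol: Rpl or Rps, a number and at most a short suffix, together with Rplp0, Rplp1, Rplp2 and Rpsa. This gave 84 of the 24475 genes in the table. Of these, 43 encode standard proteins of the large subunit, 31 standard proteins of the small subunit and 3 the stalk of the large subunit, and 7 are paralog copies (Rpl3l, Rpl7l1, Rpl10l, Rpl22l1, Rpl39l, Rps4l and Rps27l). A scaled value of at least 1 in at least 3 libraries was asked for before testing, and 80 of the 84 passed. The 4 that did not, Rpl10l, Rpl39l, Rpl3l and Rps4l, are all paralog copies. Fau, Rpl36al and the ribosome-bound scaffold Rack1 (listed as Gnb2l1) fall outside the symbol rule and were followed as a list of their own.

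RNA sequencing was done on 23 samples. The 6 Thymus controls were normal thymus of C57BL/6 mice. The 14 WT T-ALL samples were spleens of BALB/c Rag2-/-Il2rg-/- hosts that developed T-cell acute lymphoblastic leukemia after a newborn wild-type B6.Ly5.1 thymus lobe was placed under the kidney capsule, and the 3 Notch3 KO T-ALL samples were spleens of the same kind of host whose donor thymus came from Notch3 knockout mice, made by inserting β-galactosidase into the first coding exon. Spleens were not sorted, so host cells remained in them, and tissue, host strain and leukemia cannot be told apart in either comparison with thymus. Values are log2(x + 1), where x is a scaled value set by the authors so that its 75th percentile lay at 10 in every library, and a difference of 1 is a 2-fold change of x. The smallest values fell with transcript length, though less steeply than full length scaling would give. Levels of different genes can therefore be set side by side only roughly. The deposited values hold no read counts, so the depth of each library cannot be read from them. In bulk samples, fewer cells of a type and less RNA per cell cannot be told apart.

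T-cell markers were high in every group (Cd3d, Cd3e, Cd3g, Lck, Thy1 and Cd2 had a summed level, as log2, of 11.28–11.57 in Thymus, of 10.42–11.63 in WT T-ALL, and of 10.66–11.18 in the Notch3 KO group), whereas the 6 erythroid markers ranged over 0.27–1.77 among the Thymus controls, over 5.05–9.37 in WT T-ALL, over 8.44–10.85 in the Notch3 KO group and did not overlap between thymus and leukemic spleen. Neutrophil markers spanned 5.85–9.05, 9.29–16.35 and 7.64–12.87, macrophage markers 3.13–5.61, 4.18–8.21 and 7.76–8.3, megakaryocyte markers 0.73–1.14, 2.34–7.63 and 5.92–7.52, B-cell markers 4.18–4.57, 0.59–2.77 and 0.71–1.34 and thymic epithelium markers 2.23–2.84, 0.03–2.11 and 0.28–2.26 in the same order, with Foxn1, Psmb11 and Krt5 at 0 in all 3 Notch3 KO T-ALL samples. Notch3 itself had levels of 2.62–4.29 (controls, median 3.18), 3.17–5.78 (WT leukemias, median 4.85) and 2.59–3.74 (KO leukemias, median 3.22). The KO leukemias thus had a lower median than the WT leukemias, but their range overlapped with both other groups. Its level alone therefore did not mark the knockout, and why transcript was still counted was not tested. The level of 5 genes outside the family (Sco2, 1110002L01Rik, Srsf4, Kcnmb4 and D330050I16Rik, chosen after seeing the data) also split the libraries into 2 sides that the labels do not name: Thymus 5 and 6, WT T-ALL 3, 4, 5 and 7 and all 3 Notch3 KO T-ALL on side A, and the other 14 libraries on side B.

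Ribosomal protein mRNAs were among the most abundant in all 3 groups, at levels close to each other. Of the 77 tested members that are not paralog copies, 74 had a mean level over all libraries between 10 and 12. The highest were Rps24 (mean 11.87), Rpl23a (11.69) and Rpl23 (11.53), and the lowest, apart from Rps27, was Rpl29 (9.34). The 84 genes made up 18.6% ± 3.79 (SD, n = 6) of the summed linear values in Thymus, 24.5% ± 5.23 (n = 14) in WT T-ALL and 23.4% ± 5.05 (n = 3) in Notch3 KO T-ALL, a description with no test. Without mitochondrial and hemoglobin genes in the sum, which took up to 45.9% (WT T-ALL 7) and 15.5% (Notch3 KO T-ALL 2) of a library, the shares were 21.5% ± 4.25, 30.0% ± 5.08 and 31.1% ± 5.16.

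**Figure D1:**
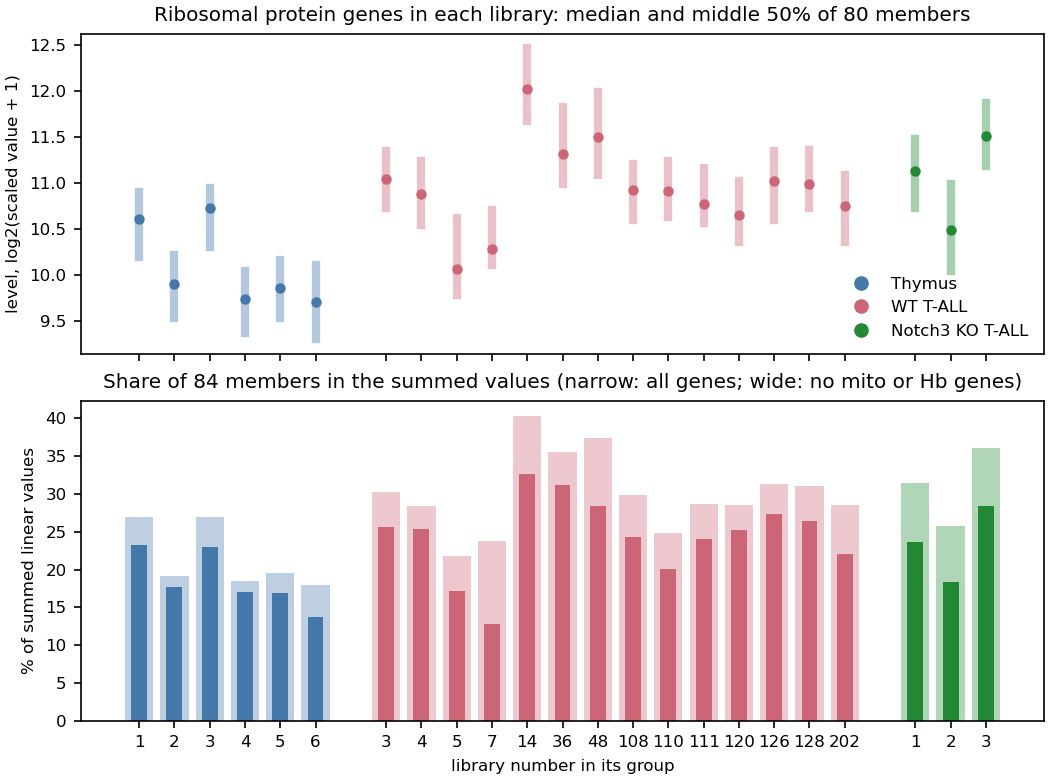
Upper panel: level of the tested ribosomal protein genes in each library, as the median (point) and middle 50% (bar) of 80 members on the log2(scaled value + 1) axis. Lower panel: percent of the summed linear values taken by all 84 members, of all genes (narrow bars) or without mitochondrial and hemoglobin genes (wide bars). Thymus medians run from 9.7 to 10.73 and WT T-ALL medians from 10.06 to 12.02, with WT T-ALL 14 highest.

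The genes moved up and down together from library to library. The median member lay between 9.70 and 10.73 in the controls, between 10.06 and 12.02 among the WT T-ALL libraries (median 10.9) and at 11.13, 10.49 and 11.51 in the 3 Notch3 KO T-ALL samples. Of all libraries, WT T-ALL 14 was highest at 12.02, followed by Notch3 KO T-ALL 3, WT T-ALL 48 and WT T-ALL 36 at 11.51, 11.50 and 11.31, and WT T-ALL 5, 7 and 120 (10.06, 10.28 and 10.65) and Notch3 KO T-ALL 2 (10.49) lay within the thymus range. Thymus 1 (10.61) and 3 (10.73) stood above the other 4 thymus samples (9.70 to 9.90). In Thymus 1 and 3 and in WT T-ALL 14, 36 and 48, the highest of their groups, genes outside the family lay further below their own mean over all libraries the more GC their transcripts held, with slopes of -0.324 to -0.168 on the log2 scale for each 10% of GC. Notch3 KO T-ALL 3, with a median member as high as that of WT T-ALL 48, had a slope of 0.099, Notch3 KO T-ALL 1, at 11.13, had one of 0.149, and the other libraries lay between -0.113 and 0.473. Fits corrected for GC content and length stand with the comparisons with Thymus.

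Sequences at the transcription starts were read from the RefSeq promoter table (GRCm38.p6), which held 63 of the 84 members. In 12 of the 63, or 19.0%, the annotated first base was a C followed by at least 4 more pyrimidines, against 2.49% of all 27025 promoters in the table. A run of this kind within 10 bases before to 15 bases after the annotated start was found in 57.1% of the members and 30.8% of all promoters. On both strands of the window from 250 bases before to 50 bases after the start, CCGGAAG, a core of sites for Ets-family factors, was present in 39.7% of members and 9.12% of all promoters (19.3% of promoters of tested genes). AAGATGG, a core of YY1 sites, was present in 14.3% and 6.48% (7.56% for tested genes), and TATAAA in 9.52% and 14.2% (7.13% for tested genes). These are letter matches, not measured sites. The windows below run from 10 bases before to 20 bases from the annotated start, 5′ to 3′, with the pyrimidine run in capitals. They show Rps27, which fell, and Rplp2, with one of the largest rises in Notch3 KO T-ALL. Levels of Rps6 and Rpl14 did not overlap between thymus and WT T-ALL, and Rps10 and Rpl15 are shown as examples of long runs.
Rps27 (chr3:90213629-90213658, minus strand): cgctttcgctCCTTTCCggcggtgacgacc
Rplp2 (chr7:141447641-141447670, plus strand): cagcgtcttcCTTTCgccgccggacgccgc
Rps6 (chr4:86857348-86857377, minus strand): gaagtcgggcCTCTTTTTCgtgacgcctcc
Rpl14 (chr9:120571507-120571536, plus strand): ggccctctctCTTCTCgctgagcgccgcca
Rps10 (chr17:27635225-27635254, minus strand): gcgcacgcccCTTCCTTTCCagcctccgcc
Rpl15 (chr14:18270967-18270996, minus strand): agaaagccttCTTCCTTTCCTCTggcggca

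WT T-ALL was set against Thymus to ask how leukemic spleens differed from normal thymus. Nearly the whole family was higher in WT T-ALL: 72 of the 80 tested members rose, 1 fell (Rps27) and 7 were not called (limma, Benjamini-Hochberg adjusted p under 0.05 over 11919 genes). Across all tested genes 29.3% were called higher and 22.3% lower, against 90% of the members higher. The median member was 0.90 higher (1.87-fold, quartiles of the members 0.76 and 1.02), while the median over all genes was 0.08 (quartiles -0.37 and 0.57). The rise ran through both subunits alike, with a median of 0.90 over the 43 large-subunit genes (40 called higher), 0.90 over the 31 small-subunit genes (27 called higher) and 0.82 over the 3 stalk genes (3 called higher). Levels still overlapped for most genes: in 5 of the 80 members (Rps6, Rpl7a, Rpl10a, Rpl14 and Rps2) every WT T-ALL library lay above every thymus library, against 8.42% of all tested genes, so a complete separation was not a mark of the family.

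The height of the rise, and whether members rose more often than other genes, depended on how libraries were set to one scale. With quantile normalization, which gives every library the same set of values, the median member difference was 0.11, and 15 members were called higher and 5 lower (18.8% and 6.25%), both smaller shares than the 24.7% and 25.5% of all tested genes. Scaled to the summed value of genes other than mitochondrial and hemoglobin genes, it was 0.48 with 53 members called higher and 2 lower, against 15.5% and 39.1% of all genes, which shifted to a median of -0.28. With the erythroid marker score in the fit no member was called and the median was 0.25, against 2.09% of all genes called higher and 3.1% lower. That score does not overlap between the groups, so it and the groups cannot be told apart. Corrected for transcript GC content and length, 55 members were called higher and 1 lower with a median of 0.61, against 24.7% and 27.6% of all genes. Within side A of the library split (4 WT T-ALL against 2 Thymus) the median was 0.87 with 4 members called higher and 0 lower, against 8.84% and 6.37% of all genes. Within side B (10 against 4) it was 0.90 with 61 called higher and 1 lower, against 23.1% and 19.6%.

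**Figure D2:**
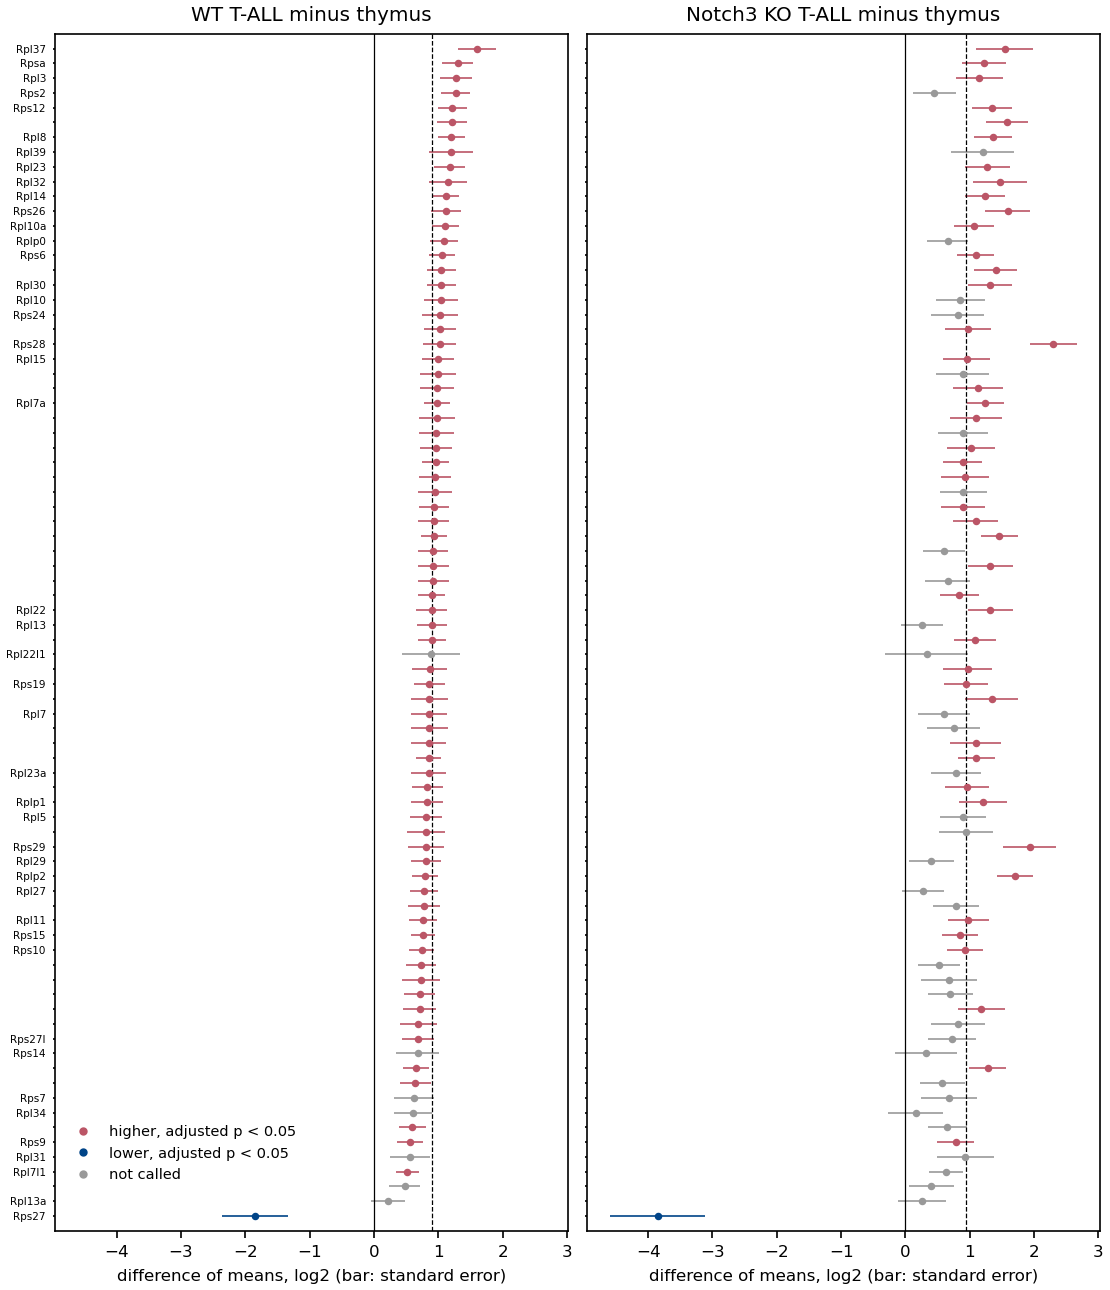
Difference of group means in log2 units, with its standard error, for each of the 80 tested ribosomal protein genes in WT T-ALL minus Thymus (left) and Notch3 KO T-ALL minus Thymus (right), both in the order of the left panel, with labels on members described in the text. Solid lines mark 0 and broken lines the median member (0.90 and 0.94). All members but Rps27 lie to the right of 0 in both panels, and Rps28, Rps29 and Rplp2 stand out at the right of the second.

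The largest rise was that of Rpl37, a zinc-binding protein of the large subunit. Its level was 10.05, 9.36, 10.28, 9.33, 9.49 and 9.22 in Thymus 1 to 6 and ran from 9.19 (WT T-ALL 5) through a median of 11.35 to 12.50 (WT T-ALL 14). It exceeded the highest thymus sample in 13 of 14 WT T-ALL libraries and lay below the lowest in the remaining one. The difference was 1.60 ± 0.30 (SE; 3.04-fold, limma adjusted p = 0.000145), and 1.14 within side A and 1.76 within side B. Rpsa, the small-subunit protein also known as the laminin receptor precursor, came next. It lay between 10.10 and 11.04 in Thymus and between 10.88 and 12.83 (median 11.78) in WT T-ALL, a rise of 1.30 ± 0.24 (adjusted p = 9.4e-05) with 13 of 14 libraries above all thymus samples. Rpl3, which helps form the peptidyl transferase center, rose by 1.28 ± 0.25 (adjusted p = 0.000252), Rps2 by 1.27 ± 0.23 (adjusted p = 8.1e-05) and Rps12 by 1.22 ± 0.22 (adjusted p = 7.49e-05).

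Rpl13a was among the members with the smallest rise. This large-subunit protein, which can leave the ribosome in interferon-treated myeloid cells, was 11.02 ± 0.53 (SD, n = 6) in Thymus and 11.24 ± 0.55 (n = 14) in WT T-ALL, a difference of 0.22 ± 0.26 (SE; adjusted p = 0.489). Its levels overlapped widely between the groups.

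The 7 members that were not called, Rpl31, Rpl34, Rps7, Rps14 and Rpl22l1 among them, all had means above those in Thymus.

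Members with known parts in leukemia or in ribosomal protein sensing moved with the family. Rpl5 rose by 0.81 ± 0.25 (adjusted p = 0.0084) and Rpl11 by 0.76 ± 0.22 (adjusted p = 0.00698). Rpl22 rose by 0.90 ± 0.24 (adjusted p = 0.00377) and Rpl10 by 1.04 ± 0.26 (adjusted p = 0.00204). Rps19, the gene most often mutated in Diamond-Blackfan anemia, was one of the lower members (8.93 ± 0.46 in Thymus) and rose by 0.86 ± 0.24 (adjusted p = 0.00422). Among the stalk proteins, which recruit elongation factors, Rplp0 rose by 1.09 ± 0.22, Rplp1 by 0.82 ± 0.25 and Rplp2 by 0.80 ± 0.20. The steadiest members within WT T-ALL were Rps15 (SD 0.34), Rps10 (0.35) and Rps9 (0.35), against a median SD of 0.52 over the 80 members.

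Rps27 was the one member that fell. It encodes a small-subunit zinc-finger protein on chromosome 3. Its level was 10.20, 9.24, 10.30, 9.08, 7.10 and 6.82 in Thymus 1 to 6, between 5.12 (WT T-ALL 48) and 8.32 (WT T-ALL 36) with a median of 7.16 in WT T-ALL, and 6.13, 3.76 and 4.92 in Notch3 KO T-ALL 1 to 3. Thymus 1 to 4 lay above every leukemic sample and Thymus 5 and 6 lay inside the WT T-ALL range. The difference was -1.85 ± 0.51 in WT T-ALL (limma adjusted p = 0.00466) and -3.85 ± 0.74 in Notch3 KO T-ALL (adjusted p = 0.000365). It followed the library split: in WT T-ALL it was -2.94 within side B and 0.43 within side A, a turn of direction, while in Notch3 KO T-ALL it was -2.02 within side A, where all 3 of these samples and Thymus 5 and 6 lie.

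The mouse genome carries an expressed retrogene copy, Rps27rt, on chromosome 9 (chr9:114982366-114982739), which the symbol rule does not take. The open reading frames of both genes, read from their GENCODE M21 transcripts, are 255 bases long and differ at 0 positions, and 341 of the 345 bases of the Rps27 transcript also stand, unbroken, in that of Rps27rt. The shared frame is shown because a read from it could belong to either gene. The frame of the paralog Rps27l, also 255 bases, differs from it at 61 positions (76.1% identity), marked by capitals, and the transcripts of Rps27 and Rps27l share no more than 11 bases in a row.
Rps27 and Rps27rt: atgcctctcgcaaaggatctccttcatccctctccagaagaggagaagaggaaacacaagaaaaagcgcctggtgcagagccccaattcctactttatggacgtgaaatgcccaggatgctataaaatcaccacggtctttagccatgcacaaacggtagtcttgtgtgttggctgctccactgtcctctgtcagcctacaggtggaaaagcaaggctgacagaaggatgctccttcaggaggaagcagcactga
Rps27l: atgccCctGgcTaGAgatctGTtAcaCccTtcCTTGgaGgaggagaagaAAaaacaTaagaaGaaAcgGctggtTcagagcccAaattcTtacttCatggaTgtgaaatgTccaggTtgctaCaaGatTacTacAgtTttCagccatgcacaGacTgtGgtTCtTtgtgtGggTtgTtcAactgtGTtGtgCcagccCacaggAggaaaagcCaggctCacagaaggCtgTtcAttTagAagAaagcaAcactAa
Rps27rt was at 10.43 ± 0.53 (SD, n = 6) in Thymus, 11.12 ± 0.70 (n = 14) in WT T-ALL and 11.71 ± 0.58 (n = 3) in Notch3 KO T-ALL, with no fall (differences of 0.69 ± 0.30, adjusted p = 0.0609, and 1.28 ± 0.44, adjusted p = 0.0255). Rps27 took 35.9%, 36.7%, 35.9% and 36.0% of the summed linear value of both genes in Thymus 1 to 4, 8.97% and 9.49% in Thymus 5 and 6, 0.71% to 16.9% in WT T-ALL and 1.99%, 0.565% and 0.585% in Notch3 KO T-ALL. The sum of both was 10.91 ± 0.65, 11.22 ± 0.65 and 11.72 ± 0.59 (log2) in the 3 groups. It differed from Thymus by 0.31 in WT T-ALL (two-sided exact permutation test, p = 0.34) and by 0.82 in Notch3 KO T-ALL (exact p = 0.143), neither of which passed the threshold. Since few reads could tell these genes apart, the level of Rps27 alone is uncertain.

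**Figure D3:**
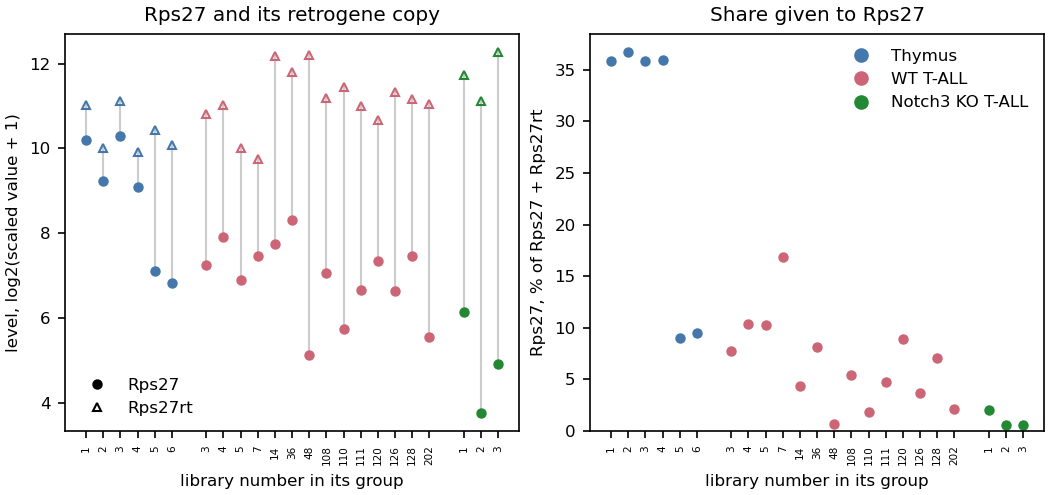
Left: level of Rps27 (filled circles) and of its retrogene copy Rps27rt (open triangles) in each library on the log2(scaled value + 1) axis. Right: Rps27 as a percent of the summed linear value of both genes. Thymus 1 to 4 sit at 35.9% to 36.7%, Thymus 5 and 6 near the WT T-ALL libraries, and the Notch3 KO T-ALL libraries at 0.565% to 1.99%.

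Most paralog copies were far below the genes they resemble. Rpl22l1 (7.10 ± 0.91 in Thymus, 7.99 ± 0.99 in WT T-ALL) and Rps27l, a p53-induced copy (7.03 ± 0.54 and 7.71 ± 0.54), were expressed at moderate levels, and Rpl7l1 at 5.11 ± 0.30 and 5.63 ± 0.38. Rps27l rose by 0.68 ± 0.25 (adjusted p = 0.0267) and Rpl7l1 by 0.52 ± 0.18 (adjusted p = 0.0218). Of the genes they and the other copies resemble, Rpl3, Rpl7, Rpl10, Rpl22 and Rpl39 rose (by 1.28, 0.86, 1.04, 0.90 and 1.20), and Rps27 fell by 1.85. Rpl22l1 varied most of all members within WT T-ALL (SD 0.99), from 6.18 (WT T-ALL 5) and 6.32 (WT T-ALL 126) to 9.51 (WT T-ALL 48), and its difference of 0.89 ± 0.45 was not called (adjusted p = 0.101). Rpl10l, a testis copy of Rpl10, was listed at 0 in all 23 libraries. Rpl39l, a testis copy of Rpl39, was above 0 in 6 libraries and reached 0.42. Rpl3l, the muscle copy of Rpl3, was 0.09 to 0.19 in Thymus and at most 0.44 in all but 4 leukemic samples, where it was 2.35 (WT T-ALL 5), 1.83 (WT T-ALL 126), 0.86 (WT T-ALL 128) and 0.72 (WT T-ALL 7). Rps4l, a copy of Rps4x, was 0.71 to 1.21 in Thymus and 0.09 to 0.39 in WT T-ALL, which did not overlap, but these are linear values of 0.927 ± 0.238 (SD, n = 6) and 0.191 ± 0.078 (n = 14), too low for the filter. Without the filter it was called lower in both comparisons with Thymus.

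Of 6 chosen pairs of a gene and its paralog, which did not include Rps4x and Rps4l, 4 had both genes above 0 in at least 7 of the 14 WT T-ALL libraries and were compared across these. Rpl22 and Rpl22l1 rose and fell together (Pearson r = 0.65, permutation p = 0.0123, adjusted over the 4 pairs 0.0246; Spearman rho = 0.73, permutation p = 0.00428, adjusted 0.0171), as did Rpl7 and Rpl7l1 (r = 0.68, p = 0.00722, adjusted 0.0246; rho = 0.53, p = 0.0543, adjusted 0.0724, permutation test). Neither relation kept its sign once the level of the whole family was subtracted. Without WT T-ALL 14 and 48, the libraries farthest from the median of the x axis, r was 0.41 and 0.50, after quantile normalization it was 0.06 and 0.21, and with each library's median member subtracted it was -0.23 and -0.39. Within the 10 libraries of side B r was 0.58 and 0.56 (side A held 4 libraries, too few). Rps27 and Rps27l (r = 0.24, permutation p = 0.419; rho = 0.35, p = 0.222) and Rpl3 and Rpl3l (r = -0.56, permutation p = 0.0438, adjusted 0.0584; rho = -0.54, p = 0.0474, adjusted 0.0724) did not pass after adjustment. For these r was 0.51 and -0.27 without the 2 farthest libraries and 0.29 and -0.29 within side B.

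Since the family moved as a block, each member was also compared after subtracting the median member of its library, a scale that shows only departures from the rest of the family (all genes then shift by a median of -0.77, 3.24% of them called higher and 56% lower). The subtraction also takes out spread that the members share, so members are called more readily and the shares of all genes are not a like background. On this scale 11 members stood above the family in WT T-ALL and 4 below. Rps27 (-2.69 ± 0.48) and Rpl13a (-0.62 ± 0.12, limma adjusted p = 0.000115) were lower relative to the family, as was Rps9 (-0.28, adjusted p = 0.0493), a call that 8 of 23 fits with a library left out retained. Rpl37 (0.76 ± 0.16, adjusted p = 0.000271), Rpsa (0.45 ± 0.09, adjusted p = 8.99e-05), Rpl3 (0.44 ± 0.11), Rps2 (0.43 ± 0.13), Rps12 (0.37 ± 0.11) and Rpl23 (0.33 ± 0.11) were higher in all 23 such fits, and Rpl10a (0.26) in 22, Rpl32 (0.31) in 17, Rpl39 (0.36) in 9 and Rplp0 (0.24) in 8. Within side A, with 6 libraries, Rps2 alone was called (0.83, adjusted p = 0.0332), and within side B, with 14, it was not (0.24, adjusted p = 0.193). Rps27 stood at -0.36 (adjusted p = 0.587) within side A and at -3.78 (adjusted p = 1.42e-05) within side B.

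All 4 members on chromosome 15, Rpl37, Rpl3, Rpl8 and Rpl30, rose by more than the median member in WT T-ALL (1.60, 1.28, 1.20 and 1.05). The 468 other tested genes on chromosome 15 had a median difference of 0.39, against 0.07 over 10970 genes on the other autosomes. Relative to thymus, these 468 genes stood 0.25 to 0.48 above the other autosomes in 11 of 14 WT T-ALL libraries, and 0, -0.07 and -0.09 in WT T-ALL 5, 36 and 48. The 4 members stood 0.25 to 0.63 above the rest of the family in the former and 0.03, 0.09 and 0.27 above it in the latter. In Notch3 KO T-ALL 1 to 3 the other genes stood at 0.43, 0.35 and 0.24 and the members at 0.53, 0.66 and 0.16. The study's exome analysis of T-ALL samples showed gain of chromosome 15, which its authors put down to a trisomy common in mice. DNA copy number was not analysed here, and its part in these differences was not tested.

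The same question was put to Notch3 KO T-ALL, with the same Thymus controls. Here 45 of the 80 members rose and Rps27 fell, against 21.2% of all tested genes called higher and 16.3% lower. The median member was 0.94 higher (1.91-fold, quartiles 0.69 and 1.21, all genes 0.08). Medians were 0.93 for the large subunit (23 of 43 called higher), 0.94 for the small subunit (20 of 31) and 1.21 for the stalk (2 of 3). In 24 members every Notch3 KO T-ALL library lay above every Thymus library, against 23.9% of all genes, and in 1 every library lay below, against 18.4%. The count leaned on single samples: with sample 3 of the group left out it was 16, with sample 1 left out 27 and with sample 2 left out 58. Besides 1 member called lower, these were 18.8%, 32.5% and 71.2% of members called higher, against 13.4%, 15.4% and 20.9% of all genes. Of the 46 calls, 16 were made in every fit with 1 library left out. With quantile normalization the median was 0.05 with 9 members called higher and 7 lower (11.2% and 8.75%), both smaller shares than the 17.5% and 20.1% of all tested genes. With the summed value as scale it was 0.47 with 32 higher and 2 lower, against 10.6% and 30.6% of all genes (median -0.32). Corrected for GC content and length it was 0.51 with 27 higher and 1 lower, against 17.6% and 21.7%. With the erythroid score it was -0.02 with no member called, against 0.201% of all genes called higher and 0.31% lower. Within side A it was 1.26, with 36 called higher and 1 lower, against 15.3% and 9.85%.

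Rps28, Rps29 and Rplp2 rose furthest. Rps28, a small protein near the mRNA exit site of the small subunit, was 9.44, 9.39, 10.04, 9.35, 9.16 and 8.37 in Thymus 1 to 6, 8.98 to 11.03 in WT T-ALL (median 10.40) and 11.68, 11.25 and 11.84 in Notch3 KO T-ALL. All 3 Notch3 KO T-ALL samples lay above all 20 other libraries. The rise over Thymus was 2.30 ± 0.36 (4.92-fold, limma adjusted p = 3.71e-05). Rps29, a zinc-binding protein of the small subunit, was 9.64 to 11.44 in Thymus, 10.01 to 12.24 in WT T-ALL (median 11.58) and 12.37, 12.47 and 12.85 in Notch3 KO T-ALL, which again did not overlap with any other library. It rose over Thymus by 1.93 ± 0.41 (3.80-fold, adjusted p = 0.000795). Rplp2, an acidic stalk protein, was 9.95 to 10.36 in Thymus, 10.04 to 11.65 in WT T-ALL (median 10.88) and 11.80, 11.32 and 12.28 in Notch3 KO T-ALL, a rise of 1.70 ± 0.28 over Thymus (3.25-fold, adjusted p = 7.9e-05). Rps26 rose by 1.59 ± 0.35 (adjusted p = 0.00116).

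At the other end, Rpl34 differed from Thymus by 0.16 ± 0.43 (adjusted p = 0.796) and Rpl13 by 0.26 ± 0.33 (adjusted p = 0.569). Rps2, among the members with the largest rise in WT T-ALL, was 10.32, 9.26 and 10.45 in Notch3 KO T-ALL, 0.45 ± 0.33 above Thymus (adjusted p = 0.297). After subtracting the median member (all genes then at -0.88, 3.11% called higher and 43.2% lower), 10 members stood above the family and 10 below. Rps28 (1.35 ± 0.26) and Rps29 (0.97 ± 0.22) above, and Rps27 (-4.80 ± 0.70), Rpl34 (-0.80 ± 0.20), Rpl13 (-0.70 ± 0.14), Rpl27 (-0.69 ± 0.17) and Rpl13a (-0.69 ± 0.17) below were called in all 23 fits with a library left out.

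The direct comparison of Notch3 KO T-ALL with WT T-ALL asked whether loss of Notch3 in the donor thymus went with a different profile. Of the 80 members, 0 were called by limma (lowest adjusted p = 0.0745), against 0.617% of all tested genes. At an unadjusted p under 0.05 there were 6 members, against 8.51% of all genes, and the median member difference was 0.06. With the erythroid score in the fit the median was -0.27, with 11 of 80 members higher and 0 called, against 0.0856% of all genes called higher and 0% lower. It was -0.20 with sample 3 of the KO group left out and 0.34 with sample 2 left out. Within side A, which holds all 3 KO libraries and 4 WT T-ALL libraries, the median was 0.34, with 70 of 80 members higher and 0 called. Of all genes, 0.109% were called higher there and 0.0091% lower. With the split as a covariate the median was 0.34, with 70 members higher and 2 called, both higher, against 1.29% of all genes called higher and 0.0685% lower.

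The members farthest from the family's median did not pass the test either. Rps28 was 1.28 ± 0.32 higher in Notch3 KO T-ALL (unadjusted p = 0.000714, adjusted p = 0.0745), Rps29 1.12 ± 0.36 higher (unadjusted p = 0.00605, adjusted p = 0.196) and Rplp2 0.90 ± 0.28 higher (unadjusted p = 0.00497, adjusted p = 0.181), all by limma. Rps27 (-2 ± 0.57, adjusted p = 0.127), Rps2 (-0.82 ± 0.29, adjusted p = 0.28) and Rpl13 (-0.65 ± 0.31, adjusted p = 0.591) were lower. Rps28 and Rps29 were the 2 members whose levels did not overlap between the groups in the higher direction, against 0.325% of all tested genes. All 3 Notch3 KO T-ALL samples lie on side A, and against the 4 WT T-ALL libraries of that side the differences were 1.75 for Rps28, 1.78 for Rps29, 0.78 for Rplp2, -2.45 for Rps27, -0.62 for Rps2 and -0.41 for Rpl13.

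After subtracting the median member, 4 members were called between the leukemias, against 0.197% of all genes called higher and 0.0599% lower. These shares are not a like background, since the subtraction takes out spread that the members share. At an unadjusted limma p under 0.05 it took members from 6 to 20 and all genes from 994 to 536. Relative to the family, Rps28 was 0.55, 0.76 and 0.33 in Notch3 KO T-ALL and -1.30 to -0.15 in WT T-ALL, a difference of 1.17 ± 0.23 (limma adjusted p = 0.0168). Rps29 was 1.24, 1.98 and 1.34 against -0.06 to 0.92, a difference of 1.01 ± 0.20 (adjusted p = 0.0167). Rpl13 was -0.65, -0.76 and -0.69 against -0.12 to 0.45, a difference of -0.76 ± 0.14 (adjusted p = 0.0121), and Rps2 was -0.81, -1.23 and -1.06 against -0.53 to 0.19, a difference of -0.93 ± 0.18 (adjusted p = 0.0167). On this scale the levels of these 4, picked because they were called, did not overlap between the leukemias. Those of Rpl27, Rpl34 and Rpl37a, which were not called, did not overlap either. The share of all genes without overlap was not computed on this scale. None of the 4 called members was called once sample 2 or sample 3 of the KO group was left out, Rps28 also not once sample 1 was, and all 4 were called within side A (adjusted p = 0.000191, 6.13e-06, 0.0334 and 0.00331). The summed erythroid markers given above lay at 8.44–10.85 in these 3 libraries and at 5.05–9.37 in WT T-ALL, and their part in these differences was not tested on this scale.

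**Figure D4:**
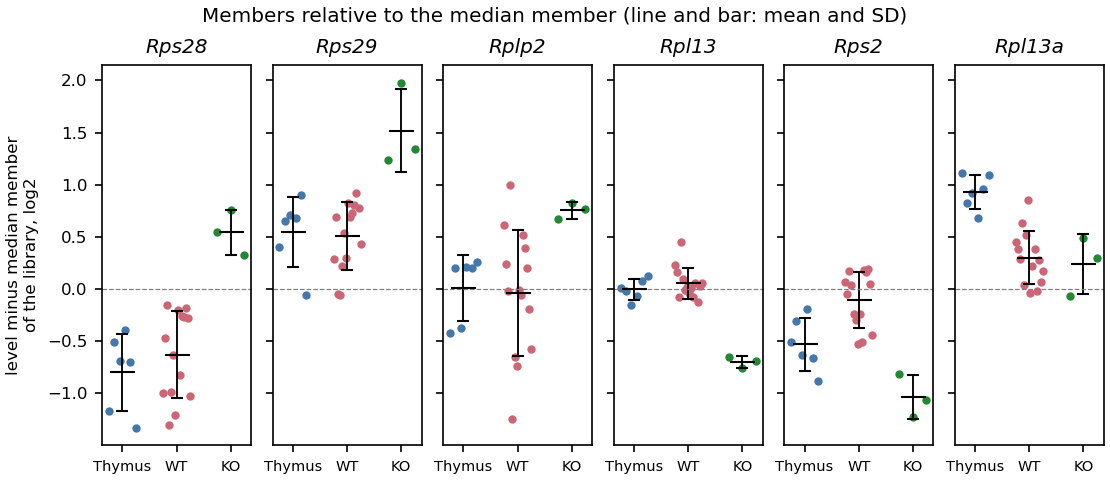
Level of 6 members minus the median member of the same library (log2; broken line at 0, the median member) in Thymus, WT T-ALL and Notch3 KO T-ALL; each point is a library, and the line and bar are the mean and SD. Rps28 and Rps29 lie higher and Rpl13 and Rps2 lower in the 3 Notch3 KO T-ALL libraries than in every WT T-ALL library, while Rpl13a is lower than in Thymus in most leukemic libraries of both kinds.

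Other genes of the protein synthesis machinery, taken from fixed lists, moved in the same direction. Of 14 translation factors and related genes with TOP mRNAs, 12 rose in WT T-ALL (median 0.93, against 29.3% of all tested genes called higher), among them Npm1 (1.60 ± 0.23, adjusted p = 7.35e-06), a nucleolar chaperone, and Pabpc1 (1.49 ± 0.16, adjusted p = 1.5e-07), the poly(A)-binding protein, while the difference of Tpt1 was 0.41 (adjusted p = 0.167). In Notch3 KO T-ALL 8 of the 14 rose (median 0.76, against 21.2% of all genes). Of 20 genes for rRNA synthesis and ribosome assembly, 17 and 15 rose (medians 0.94 and 0.99, against the same 29.3% and 21.2%), led in WT T-ALL by Gnl3 (1.59 ± 0.22), Nop58 (1.39 ± 0.17) and Dkc1 (1.34 ± 0.20). Wdr12 (-0.06), Ubtf (-0.15) and Rrn3 (0.27) were not called. Set against the median member these medians were 0.09 and 0.09 in WT T-ALL and -0.19 and 0.03 in Notch3 KO T-ALL.

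The 77 mitochondrial ribosomal protein genes, which encode proteins of a different ribosome, had smaller median differences. In WT T-ALL 53 of them were called higher (68.8%, against 29.3% of all tested genes; median 0.51), and in Notch3 KO T-ALL 30 (39.0%, against 21.2%; median 0.53). Relative to the median member of the cytosolic family, 1 was called higher and 22 lower in WT T-ALL (median -0.33, with 3.24% of all tested genes called higher and 56% lower) and 0 and 17 in Notch3 KO T-ALL (median -0.42, with 3.11% and 43.2%). Of the ribosomal genes outside the symbol rule, Rpl36al rose in WT T-ALL and in Notch3 KO T-ALL (0.81 and 1.34), and Gnb2l1 rose in WT T-ALL (0.82) and differed by 0.85 (adjusted p = 0.0651) in Notch3 KO T-ALL. Fau, which encodes Rps30 fused to a ubiquitin-like protein, differed by 0.33 (adjusted p = 0.184) and 0.14 (adjusted p = 0.737).

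Of 10 genes that sense ribosomal proteins or control their synthesis, 4 rose and 2 fell in WT T-ALL, counts not far from the 29.3% and 22.3% of all tested genes. Myc, which drives transcription of ribosomal protein genes, rose by 1.87 ± 0.21 (adjusted p = 1.6e-07), Eif4ebp1, an mTOR-controlled brake on translation, by 2.34 ± 0.32 (adjusted p = 3.25e-06), Larp1 by 1.05 ± 0.18 (adjusted p = 3.89e-05) and Trp53 by 0.66 ± 0.14 (adjusted p = 0.0004). Mdm2 fell by 0.71 ± 0.12 (adjusted p = 4.68e-05) and the S6 kinase gene Rps6kb2 by 0.51 ± 0.18 (adjusted p = 0.0254). In Notch3 KO T-ALL the same 4 rose, Mdm2 fell, and Rps6kb2 differed by -0.27 (adjusted p = 0.445). No gene of these lists was called by limma between Notch3 KO T-ALL and WT T-ALL.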

How the data were processed

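RNA was sequenced from 23 samples (6 Thymus, 14 WT T-ALL, 3 Notch3 KO T-ALL). Per the study's methods, the authors prepared stranded mRNA libraries, used ArrayStudio and its OSA aligner against mouse transcripts (mm10) and quantified genes there. Versions are not given in the sources used here. The deposited values are log2 of a scaled expression value plus 1, with its 75th percentile set to 10 in each library by the authors. The linear unit is not given for this table. The smallest values above 0 fell with transcript length (log2 slope -0.6 over 5435 low genes). This is the direction that length scaling gives, but less steep than full scaling would give. The values hold no read counts, so no count model was used. The study's methods give an approximate number of reads per sample, but not the depth of each library, and precision rests on the spread between samples. All sample columns of the table matched a sample. Groups and numbers came from the sample titles. The study describes each T-ALL case and each thymus as a separate mouse, while the labels name no animals.

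Differences were tested with limma 3.58.1 in R 4.3.3 (trended, robust moderation) on genes with a scaled value of at least 1 in at least 3 samples, with Benjamini-Hochberg adjustment over all such genes and a threshold of 0.05. Both comparisons with Thymus came from 1 fit over the 3 groups, and Notch3 KO T-ALL against WT T-ALL from the leukemias alone. The test was run first on simulated data. Permutation tests used Python 3.11.15 and SciPy 1.17.1, with 100000 resamples for correlations. GC content and length came from RefSeq and GENCODE M21 annotation of the same build. Alternatives were other offsets, filters and scalings, a replicate block, an erythroid covariate and leaving out each library; the corrections for GC content and length, the scaling to the median member and the split of libraries were added after seeing the data.

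The family, the lists and the tests were chosen with earlier results of these data known. Members named were the 5 largest called rises and falls and the 3 farthest from the family's median on each side per comparison, a fixed set (paralog copies and their partners, stalk proteins, Rpsa, Rpl5, Rpl10, Rpl11, Rpl22, Rps19, chromosome 15 members), and the 3 highest, lowest, most and least variable. Members called on the scale of the median member, those that did not overlap between groups, Rpl29 and the genes of the lists were named outside this rule, after their values were seen. Some single genes are not reported here, although counts and medians include them.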

Additional observations from a re-analysis of the deposited data

Results flagged for a closer look

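Of 39 measures checked over the 6 Thymus samples (the named members, the median member and the family's share), 1 held a sample far from the others, and chance gives about 1 in 20. Rpl3l was 0.19 in Thymus 4 and 0.09 to 0.12 in the other 5, a gap of 0.683 of the whole range. All of these values are near 0.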

How the results depend on the processing

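The offset, the filter, scaling to the median of other genes and limma without trend or robustness changed no count of members called (both directions together) by more than 1.5 times. Without the filter, 2 members in place of 1 were called lower in each comparison with Thymus, Rps27 and Rps4l. Of members called, quantile normalization left 20 in WT T-ALL (15 higher, 5 lower; median difference 0.11), 16 in Notch3 KO T-ALL (9 higher, 7 lower; median 0.05) and 3 between the leukemias (1 higher, 2 lower), where summed-value scaling and a fit with all groups gave 1 each and the split as a covariate 2. The erythroid score left 0 in both comparisons with Thymus (medians 0.25 and -0.02) and 0 between the leukemias (median -0.27). Of all genes it left 2.09% called higher and 3.1% lower in WT T-ALL and 0.201% and 0.31% in Notch3 KO T-ALL. Between the leukemias these shares were 0.0856% and 0%. Scaling to the median member gave 15, 20 and 4 (medians 0.06 and -0.02 against Thymus). Correction for GC content and length left 28 in Notch3 KO T-ALL (median 0.51). Within side A, 4 were called in WT T-ALL, and on the scale of the median member 1 and 10. Without mitochondrial and hemoglobin genes, the share was 21.5% in Thymus, 30% in WT T-ALL and 31.1% in Notch3 KO T-ALL. With each library left out in turn, WT T-ALL gave 63 to 76 calls (median 0.82 to 1.01; 11 to 18 on the median-member scale), Notch3 KO T-ALL 16 to 58 (0.66 to 1.25; 13 to 24) and the leukemias 0 to 1 (-0.20 to 0.34; 0 to 5). The replicate block left 16 calls in WT T-ALL and 35 in Notch3 KO T-ALL, with samples whose number stands in 1 group only adding nothing to the difference. In these fits 20% and 42.5% of members were called higher, against 14.1% and 17.6% of all genes. Called lower were 0% and 1.25% of members, against 10.5% and 13% of all genes. Same-numbered samples did not deviate together (r from -0.235 to 0.151), so the numbers do not pair them, and the leukemias share 1 number only. Among the named members, directions of those called, or called only after the change, reversed as follows. In WT T-ALL, Rps27 was 0.43 within side A. Scaled to the median member, Rps27l was -0.16, Rpl7l1 -0.33, Rplp1 -0.02, Rplp2 -0.05, Rpl5 -0.03, Rpl11 -0.08, Rps15 -0.08, Rps10 -0.11, Rps9 -0.28 and Rpl13a -0.62. With quantile normalization, Rplp2 was -0.01, Rpl11 -0.06, Rpl23a -0.02, Rps15 -0.06, Rps10 -0.07, Rps9 -0.28 and Rpl13a -0.70, and with the erythroid score Rpl39 -0.29, Rpl7 -0.02 and Rpl11 -0.08. In Notch3 KO T-ALL, the erythroid score gave Rps29 -0.38, Rpl3 -0.01, Rpsa -0.05, Rpl11 -0.28, Rpl37 -0.79 and Rps9 -0.02, scaling to the median member Rps19 -0.01, Rps15 -0.11, Rps10 -0.03, Rps9 -0.17, Rpl34 -0.80, Rpl13 -0.70, Rpl13a -0.69 and Rps2 -0.51, and quantile normalization Rps15 -0.09, Rps9 -0.19, Rpl34 -0.71 and Rpl13 -0.63. The cause of these changes was not tested. Of the other values for named members, 2761 kept direction and side of the threshold, 178 lost the call, 51 gained it and 107 changed sign without a call before or after. The depth of each library was not known and could not be weighed.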
